A study of Mus musculus with 4 samples.

Results

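Somatostatin (Sst) and neuropeptide Y (Npy) were followed with 6 of their receptors, the somatostatin receptor genes Sstr1, Sstr2 and Sstr3 and the NPY receptor genes Npy1r, Npy2r and Npy5r. The 8 genes were taken by name, and all 8 were found among the 20136 genes of the count tables. Sst RNA was concentrated in a small set of GABAergic neurons, and most of those with the highest Sst counts also held Npy. Npy2r was the receptor RNA with the most counts in these neurons, and Sstr1 was the receptor gene found in glia, in oligodendrocyte precursors.

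Both peptides are made as precursors, cut and stored in dense-core vesicles, and released beside a fast transmitter. Their receptors couple mainly to inhibitory G proteins of the Gi/o family, so that ligand binding lowers cyclic AMP and opens inward-rectifying potassium channels. Npy1r is chiefly a postsynaptic receptor, Npy2r is often found on axon terminals where it limits release, and Npy5r lies next to Npy1r in the genome. In forebrain, Sst and Npy mark overlapping sets of GABAergic neurons, including interneurons from the medial ganglionic eminence, the embryonic source of cells that express the transcription factors Lhx6 and Sox6.

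The data were 4 Drop-seq libraries of tissue punches from the BNST (bed nucleus of stria terminalis), which belongs to the extended amygdala of the forebrain. All mice were male, wildtype and of the C57BL/6J strain, housed on a reversed light cycle with free access to chow and water, and no treatment or age was given in the labels. Punches of 6 mice were pooled for each library, 24 mice in all, so single animals cannot be told apart and the 4 libraries, which the labels call batches, are the replicates of 1 group. Drop-seq tags each RNA molecule with a cell barcode and a unique molecular identifier (UMI), and levels are given as CPM, the counts of a gene scaled to 1000000 UMIs of its class in its library.

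Of 10200 barcodes, 4181 passed filters on gene number, mitochondrial share and doublets, with 837 to 1281 per library and 2119143 to 4842995 UMIs per library. No barcode of a kept cell occurred in more than 1 library. Library 4 had the lowest median depth, 1483.5 UMIs per cell, and library 1 the highest, 2504.0. Cells were assigned to classes by counting detected markers, without the 8 genes. This gave 2517 neurons, of which 2276 were GABAergic and 89 glutamatergic, and 941 oligodendrocytes, 407 astrocytes, 162 oligodendrocyte precursors, 68 vascular cells and 10 microglia. The 76 cells left over were not assigned, and 74 cells (1.77%) were placed by a margin of 1 marker. GABAergic neurons were divided by 12 subtype gates named after their marker genes, which left 1039 with no subtype.

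Sst lies on chromosome 16 at 23889573-23890958 on the minus strand, and Npy on chromosome 6 at 49822710-49829507 on the plus strand (GENCODE vM21, GRCm38). Sstr1 is at 58211772-58214444 on chromosome 12, Sstr2 at 113619342-113626028 on chromosome 11, both on the plus strand, and Sstr3 at 78537008-78544685 on the minus strand of chromosome 15. Npy2r is at 82538383-82548084 on the minus strand of chromosome 3. Npy5r, at 66679965-66688128 on the minus strand of chromosome 8, and Npy1r, at 66697192-66706792 on the plus strand, point away from each other across 9063 bases. All 8 are protein-coding genes. Sstr2 is the one whose span overlaps another annotated gene, Slc39a11 on the opposite strand, and whether counting used strand was not given in the sources used here, so its UMIs carry that doubt.

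Upstream sequence of Sst, Npy and Sstr2 is shown because the 2 peptides were found in the same cells, and because 2 of the 8 genes share a known promoter element. The cyclic AMP response element, the letters TGACGTCA on either strand, is the textbook site through which cyclic AMP acts on somatostatin transcription. It occurred in 588 of 32851 RefSeq promoter windows of 300 bases (1.79%), from 250 bases before the start to 50 after it. Of the 8 genes 7 had such a window, all but Sstr1, and those of Sst and Sstr2 held these letters. The exact letters of a TATA box (TATAAA) occurred in 13.6% of windows and those of a homeodomain core (TAATTA) in 5.29%, and in none of those of the 7 genes. Variants of these letters were not searched, so the lack of a TATA box is not shown. The 120 bases before the RefSeq start (GRCm38.p6) are given 5′ to 3′ on the gene's strand, with the element in capitals. They are chr16:23890845-23890964 (minus) for Sst, chr11:113619207-113619326 (plus) for Sstr2 and chr6:49822590-49822709 (plus) for Npy.
Sst: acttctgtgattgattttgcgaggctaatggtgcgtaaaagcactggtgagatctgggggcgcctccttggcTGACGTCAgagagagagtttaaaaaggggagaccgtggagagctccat
Sstr2: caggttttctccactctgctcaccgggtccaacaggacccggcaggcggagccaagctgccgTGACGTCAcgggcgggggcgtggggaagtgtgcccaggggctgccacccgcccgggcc
Npy: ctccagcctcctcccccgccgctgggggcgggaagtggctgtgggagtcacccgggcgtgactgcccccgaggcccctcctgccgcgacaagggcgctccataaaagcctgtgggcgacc
The element began 48 bases before the start of Sst and 58 bases before that of Sstr2. A match of letters is a description and does not show binding in these cells.

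Sst was a GABAergic RNA in this tissue. In GABAergic neurons its level was 981 CPM in library 1, 441 in library 2, 389.6 in library 3 and 1760.45 in library 4 (893 ± 637 CPM, SD, n = 4 libraries). Libraries 1 and 4 were high and libraries 2 and 3 low, and these neurons held 98.1% of the 8585 Sst UMIs of kept cells. Glutamatergic neurons held 5 Sst UMIs in 4 of 89 cells, and their levels of 0 to 37.0 CPM did not overlap those of GABAergic neurons. Oligodendrocytes, which should lack the peptide, gave 5.93 to 16.6 CPM over the 4 libraries, and astrocytes 0 to 26.0 CPM. These glial levels are the background against which low neuronal values are read.

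Npy, a peptide best known for driving feeding and dampening stress responses, followed the same libraries. Its level in GABAergic neurons was 720.2 CPM in library 1, 325 in library 2, 314 in library 3 and 948 in library 4 (577 ± 311 CPM, SD, n = 4). Oligodendrocytes gave 5.06 ± 3.80 CPM and astrocytes 3.25 ± 6.51 CPM. Glutamatergic neurons ranged from 0 to 480.3 CPM, which overlapped the GABAergic range, and their 67 Npy UMIs came from 4 cells with 6, 17, 37 and 7 UMIs.

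The share of GABAergic neurons with at least 1 Sst UMI was 12.7% (289 of 2276, median depth 3295.5 UMIs), against 1.59% of oligodendrocytes (median depth 1383.0 UMIs). With every cell thinned to 1000 UMIs, the shares were 8.70 ± 2.47% and 0.716 ± 0.986% (SD, n = 4). Npy was found in 9.23% of GABAergic neurons and 0.744% of oligodendrocytes, and after thinning in 6.67 ± 1.20% and 0.448 ± 0.448%. Detection of either peptide in GABAergic neurons was thus well above that in oligodendrocytes at equal depth.

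Across all genes, neurons were compared with non-neuronal cells in sums per library with edgeR's quasi-likelihood test, with library as a block and Benjamini-Hochberg adjustment. Of 10255 genes tested, 71.1% were called at an adjusted p under 0.05, so a call here says little about any one gene. Of the 8 genes, 6 could be tested and all 6 were higher in neurons. The log2 difference was 5.66 (SE 0.18, adjusted p = 7.2e-33) for Sst and 6.61 (SE 0.21, adjusted p = 1.7e-32) for Npy, each higher in 4 of 4 libraries. For Npy2r it was 5.68 (SE 0.38), for Npy1r 2.70 (SE 0.49) and for Sstr1 0.88 (SE 0.30, adjusted p = 0.0084). Sstr1 missed the threshold in DESeq2 (adjusted p = 0.063), without library 1 (0.061) or library 2 (0.051), and under stricter filters on cells (0.12 with at least 800 genes and 0.11 with at most 5% mitochondrial UMIs). Sstr2 had 117 UMIs in neurons and 0 in non-neuronal cells, which makes it at least 9.06-fold higher in neurons when the latter are set to 3 UMIs over all libraries. Npy5r had 78 and 0 UMIs and was at least 6.04-fold higher, and Sstr3 had 42 and 2, and both had too few counts to be tested.

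Between GABAergic and glutamatergic neurons, 2.77% of 8871 genes were called, and 2 of the 6 members tested were among them. Sst was higher in GABAergic neurons by 6.32 on the log2 scale (SE 0.30, adjusted p = 2.6e-92 in edgeR), in 4 of 4 libraries. Npy was higher by 1.86 (SE 0.18, adjusted p = 3.3e-21) but in 3 of 4 libraries, with library 2 the other way, and the call was lost in DESeq2 (adjusted p = 1.0). Npy2r did not pass (log2 difference 0.90, SE 0.33, adjusted p = 0.15), although it did without library 1 (adjusted p = 0.0088). Sstr1, Sstr2 and Npy1r did not pass, with adjusted p of 0.93, 0.48 and 0.69. The 4 receptors tested had 10 to 21 UMIs in glutamatergic neurons, which numbered 11 to 46 per library.

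**Figure D1:**
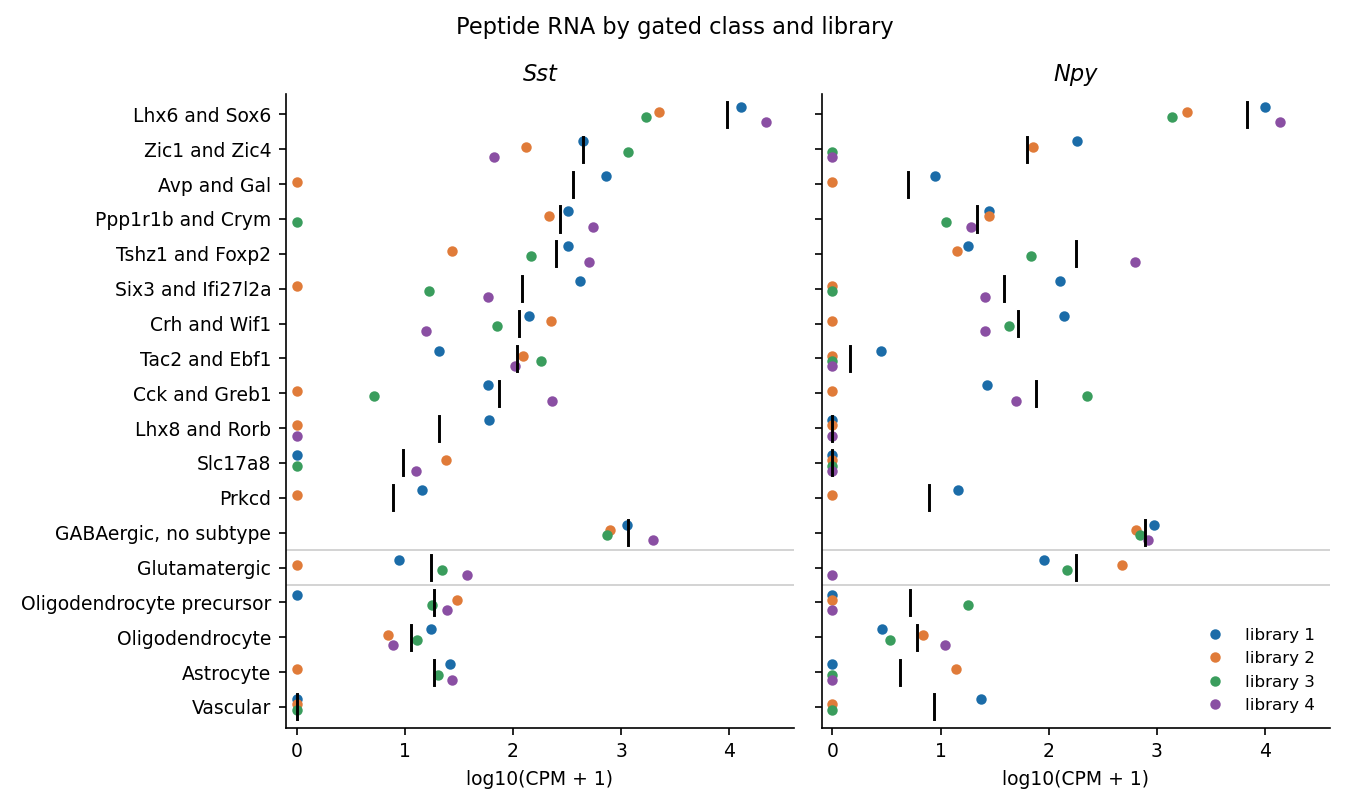
Level of Sst and Npy in each gated class, as log10(CPM + 1); each point is 1 library, black bars mark the mean over libraries, and a library with fewer than 10 cells of a class has no point. The Lhx6 and Sox6 gate stands highest for both peptides, in all 4 libraries for Sst and for Npy, and glia lie near the bottom of the scale.

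Among the subtype gates, the neurons gated by Lhx6 and Sox6, transcription factors of interneurons from the medial ganglionic eminence, held both peptides at the highest level. Their Sst level was 12774 CPM in library 1, 2256 in library 2, 1714 in library 3 and 21784.5 in library 4 (9632 ± 9568 CPM, SD, n = 4), with a UMI in 36 of 78 cells. Their Npy level was 10000.5, 1899, 1394 and 13835 CPM in libraries 1 to 4 (6782 ± 6137 CPM), with a UMI in 44 of the 78 cells. Each library's value for either peptide was above that of every other gate in the same library, and libraries 1 and 4 were again the high ones.

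The other gates formed a lower band for Sst. The Zic1 and Zic4 gate had 448 ± 495 CPM (SD, n = 4), the Avp and Gal gate 717 and 0 CPM in the 2 libraries with 10 or more of its cells, the Ppp1r1b and Crym gate 274 ± 231 and the Tshz1 and Foxp2 gate 250.2 ± 211 CPM. The Six3 and Ifi27l2a gate (121 ± 196 CPM), the Crh and Wif1 gate (112 ± 90.1) and the Tac2 and Ebf1 gate (107 ± 66.8) followed, and none of these neighbours in the order differed beyond its spread over libraries. The Slc17a8 gate, with 8.71 ± 11.1 CPM, was at the level of glia.

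Npy fell off more steeply. The Tshz1 and Foxp2 gate came second with 180.0 ± 296 CPM (SD, n = 4), a mean set by 622 CPM in library 4 against 13.2 to 67.1 CPM in the other 3 libraries. The Cck and Greb1 gate had 74.9 ± 101 CPM and the Zic1 and Zic4 gate 62.7 ± 85.4 CPM. Npy had 1 UMI in 161 cells of the Tac2 and Ebf1 gate and 0 in 76 cells of the Slc17a8 gate, which allows up to 8.91 CPM. GABAergic neurons with no subtype had 1154 ± 565 CPM of Sst and 779 ± 136 CPM of Npy. Neurons that carried the peptides were thus also found among cells with too few gate marker UMIs or with a tie between gates.

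An F-test over the gates with at least 10 cells in a library called 36.9% of 4500 genes, and Sst (adjusted p = 6.3e-26), Npy (8.1e-32) and Npy2r (1.1e-06) were the 3 members with enough counts to be tested; all 3 were called. Against the mean of the other gates, the Lhx6 and Sox6 gate was higher by 6.53 on the log2 scale for Sst (SE 0.29, adjusted p = 6.1e-30 in edgeR) and by 8.81 for Npy (SE 0.29, adjusted p = 5.4e-36). For Npy the gates averaged here include some at 0 UMIs, such as the Slc17a8 gate. The size of a Npy difference and its SE therefore depend on how counts of 0 are fitted. Sst also passed in the Zic1 and Zic4 gate (log2 difference 2.09, SE 0.57, adjusted p = 0.020). Npy passed in the Tshz1 and Foxp2 gate (2.87, SE 0.76, adjusted p = 0.018), where library 4 held most of its UMIs.

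A few cells held most of the peptide RNA. Of 2276 GABAergic neurons, 215 had at least 2 Sst UMIs, and the median among them was 10 UMIs with a maximum of 390. The 39 neurons with at least 50 Sst UMIs held 74.2% of the Sst UMIs of GABAergic neurons. Of 158 neurons with at least 2 Npy UMIs, the median was 7 and the maximum 770, and the 29 with at least 50 held 78.3% of the Npy UMIs. These high cells were spread over the libraries as 15, 4, 4 and 16 for Sst and 10, 3, 3 and 13 for Npy. In library 3 a single neuron held 32.2% of its Sst UMIs and a single neuron 35.0% of its Npy UMIs, so the level of a peptide in a library rests on few cells.

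The high cells were mostly the same for both peptides. Of the 39 neurons with at least 50 Sst UMIs, 35 had at least 2 Npy UMIs and 3 had 0. Of the 29 with at least 50 Npy UMIs, 27 had at least 2 Sst UMIs and 2 had 0. In all, 80 GABAergic neurons had at least 2 UMIs of both peptides (30, 16, 9 and 25 in libraries 1 to 4), 126 had at least 2 of Sst and 0 of Npy, and 71 had at least 2 of Npy and 0 of Sst. The 80 double-positive neurons held 81.0% of the Sst UMIs and 88.0% of the Npy UMIs of GABAergic neurons. Their median was 39.5 Sst UMIs against 5.5 in the Sst-only neurons, and 19 Npy UMIs against 4 in the Npy-only neurons. Depth did not follow this order, with medians of 3641.5, 4264.0 and 3693.0 UMIs in double-positive, Sst-only and Npy-only neurons.

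**Figure D2:**
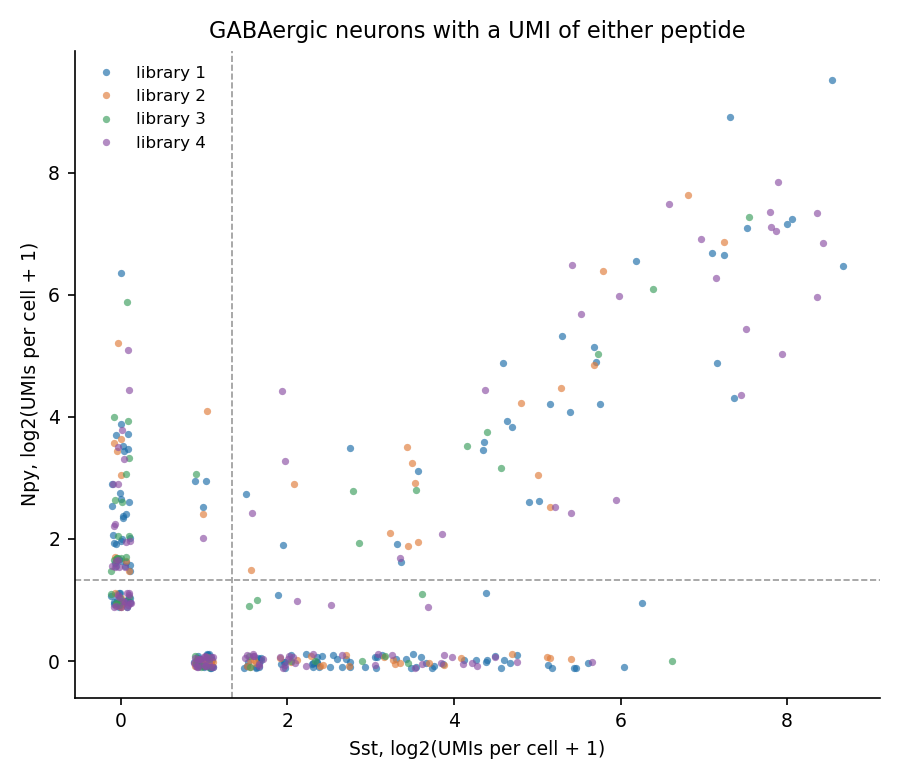
Sst against Npy UMIs in each GABAergic neuron with a UMI of either gene, on log2(UMIs + 1) axes with a small random shift; colours mark libraries and dashed lines the limit of 2 UMIs. Above 50 UMIs of Sst, 35 of 39 cells also lie above the Npy limit, while the Sst-only cells reach 99 UMIs.

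With depth equalised, the share of Sst-positive GABAergic neurons with an Npy UMI was 30.6%, 34.7%, 48.0% and 41.2% in libraries 1 to 4, against 4.09%, 2.21%, 4.34% and 3.26% of Sst-negative neurons. The shares of the 2 groups did not overlap in any library. The mean was 38.6 ± 7.64% against 3.48 ± 0.962% (SD, n = 4), a difference of 35.2 percentage points with the same direction in all 4 libraries. An exact two-sided permutation test that flips signs gave p = 0.13, the smallest that 4 libraries allow. Without thinning, 89 of 215 Sst-positive and 114 of 1987 Sst-negative neurons had an Npy UMI.

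In the other direction, 48.4%, 56.2%, 35.8% and 56.5% of Npy-positive neurons had a Sst UMI in libraries 1 to 4, against 7.80%, 4.70%, 3.48% and 5.88% of Npy-negative neurons. The mean was 49.2 ± 9.70% against 5.47 ± 1.84% (SD, n = 4), a difference of 43.8 percentage points with the same direction in all 4 libraries and the same exact permutation p of 0.13, also after adjustment over the 2 tests. Without thinning, 87 of 158 Npy-positive and 193 of 2066 Npy-negative neurons had a Sst UMI. Neurons with 1 peptide and 0 UMIs of the other were found in every library for both peptides.

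**Figure D3:**
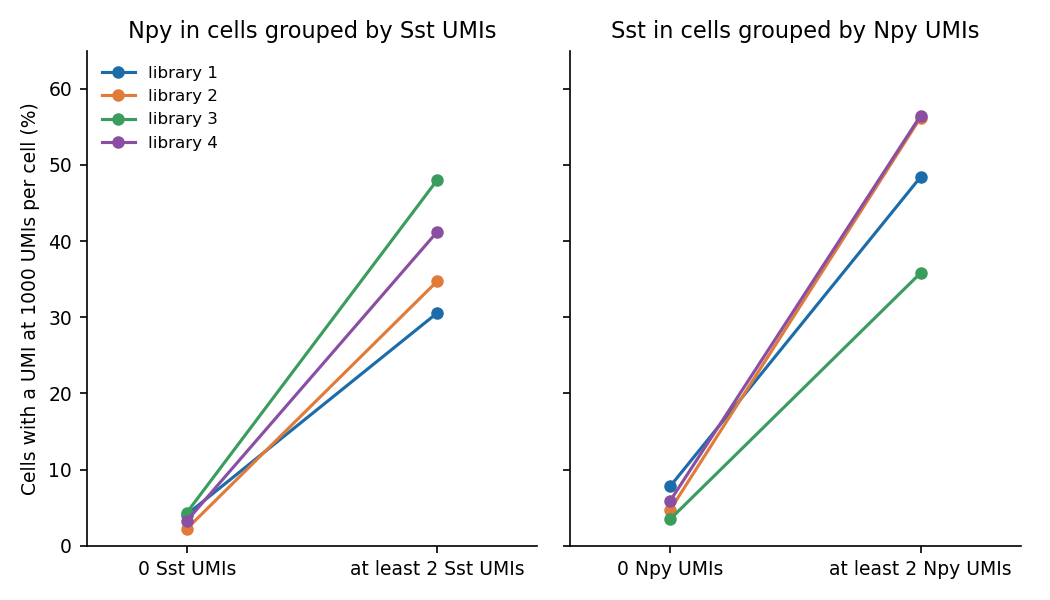
Share of GABAergic neurons with a UMI of one peptide, at 1000 UMIs per cell, in cells with 0 or at least 2 UMIs of the other; each line is 1 library. All 4 lines rise in both panels, from under 8% to between 30.6% and 56.5%.

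The gates of the 3 states are given as counts, with no test. Among all 2276 GABAergic neurons, 78 were in the Lhx6 and Sox6 gate and 1039 had no subtype. Of the 80 double-positive neurons, 30 (37.5%) were in the Lhx6 and Sox6 gate and 44 (55.0%) had no subtype, which leaves 6 in other gates. Of the 126 Sst-only neurons, 2 were in the Lhx6 and Sox6 gate and 62 in none. The Ppp1r1b and Crym gate held 16 (of its 181 cells), the Tac2 and Ebf1 gate 10 (of 161) and the Six3 and Ifi27l2a gate 9 (of 110). As a share of the gate, the Avp and Gal gate had the most, with 5 of 40 cells. Of the 71 Npy-only neurons, 10 were in the Lhx6 and Sox6 gate, the most common gate in this state too, and 43 in none.

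Sst-positive GABAergic neurons differed from Sst-negative ones in 121 of 9043 genes tested (1.34%), 83 higher and 38 lower. Npy was the largest rise, at 4287, 3408, 5361 and 8123 CPM in the Sst-positive neurons of libraries 1 to 4 against 83.1, 53.3, 102 and 80.8 CPM in the Sst-negative ones. The log2 difference was 6.03 (SE 0.10, adjusted p = 5.3e-74 in edgeR). Of the members tested, Npy2r and Sstr1 also passed. Npy2r, the presynaptic NPY receptor, was at 113, 163, 176 and 108 CPM against 70.2, 93.5, 102 and 70.1 CPM, a log2 difference of 0.73 (SE 0.18, adjusted p = 0.010 in edgeR). Pooled over libraries, Npy2r was at 214 CPM in double-positive, 75.4 in Sst-only and 50.8 in Npy-only neurons. Neurons with 0 UMIs of both peptides had 82.2 CPM, so the rise was not seen in the Sst-only neurons. Sstr1, a somatostatin receptor, was at 49.2, 33.9, 70.3 and 61.1 CPM against 24.3, 31.4, 28.0 and 17.2 CPM, a log2 difference of 1.10 (SE 0.30, adjusted p = 0.029).

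Both receptor differences were higher in 4 of 4 libraries but were near the threshold. Npy2r lost the call in 7 of 16 alternatives and Sstr1 in 7 of 15, with adjusted p of 0.15 and 0.52 in DESeq2 and of 0.61 and 0.32 without the library block. Sstr2 (log2 difference 1.02, SE 0.45, adjusted p = 0.52) and Npy1r (-0.67, SE 0.41, adjusted p = 0.81) did not pass. Sstr3 and Npy5r had too few UMIs for the fit, with 2 and 8 in the Sst-positive neurons.

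Taken as a whole, the Sst-positive neurons were higher in many genes of interneuron lineage. Of the 29 listed, 24 could be tested, 13 were higher and 1, Calb2, was lower, with a list median of 0.87 against -0.01 over all genes. Among the 5 largest rises were Sfrp1, a secreted Wnt antagonist (log2 difference 3.36, SE 0.26), Crhbp, the binding protein of corticotropin-releasing hormone (3.10, SE 0.22), Tacr1, the substance P receptor (2.75, SE 0.34), and Nos1, neuronal nitric oxide synthase (2.73, SE 0.20). Sox6 (2.66), Satb1 (1.78), Chodl (1.57) and Lhx6 (1.39) were higher as well. Most of these rises were not seen in the Sst-only neurons. Pooled over libraries, Lhx6 was at 220 CPM in double-positive neurons, 26.2 in Sst-only ones and 37.4 in those with 0 UMIs of both peptides. In the same order Nos1 was at 558, 36.1 and 33.8 CPM, and Crhbp at 456, 14.8 and 15.6 CPM. Satb1 (92.5, 44.3 and 22.1 CPM) and Tacr1 (128, 34.4 and 9.60 CPM) were also higher in the Sst-only neurons. In cortex, Sst, Npy, Nos1, Chodl and Tacr1 are known together from long-range GABAergic neurons.

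Of 13 other neuropeptides tested, 6 were lower in Sst-positive neurons and 2 higher, with a list median of 0.14 against -0.01 over all genes. The lower ones were Avp (log2 difference -3.97), Crh (-1.98), Cck (-1.62), Gal (-1.58), Tac2 (-0.74) and Penk (-0.43). Vgf (0.63) and Tac1 (0.70) were higher, Tac1 in 2 of 4 libraries. The 5 largest falls outside the gate genes were Trhr, the receptor of thyrotropin-releasing hormone (-1.74, SE 0.43), Oprk1, the kappa opioid receptor (-1.47, SE 0.38), Irs4 (-1.33), Pbx3 (-1.29) and Glra2 (-1.14).

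Of 12 genes for peptide processing and dense-core vesicles, Pam, the enzyme that amidates peptides such as NPY, was higher in Sst-positive neurons (log2 difference 1.38, SE 0.11), as was Scg3 (0.48), and Cadps2 was lower (-0.75). None of 15 genes of Gi/o signalling was called in the Sst-positive or the Npy-positive neurons. A sum of 8 glial RNAs was 2760 CPM in the 20 Sst-positive neurons of library 3, against 441 to 635 CPM in the other 3 libraries and 496 to 604 CPM in Sst-negative neurons. The part of this glial RNA in the differences above was not tested.

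Npy-positive GABAergic neurons differed from Npy-negative ones in 249 of 8816 genes (2.82%), 136 higher and 113 lower. Sst was the largest rise, at 8622, 6155, 5072 and 20081 CPM in Npy-positive neurons of libraries 1 to 4 against 235, 146, 109 and 174 CPM in Npy-negative ones, with no overlap (log2 difference 5.75, SE 0.11, adjusted p = 1.3e-80 in edgeR). Npy2r was at 133, 193, 64.0 and 109 CPM against 73.6, 94.5, 105 and 70.3 CPM. It was lower in library 3 and higher in the other 3, and the log2 difference of 0.65 (SE 0.21) missed the threshold (adjusted p = 0.064). It passed without library 3 (adjusted p = 0.012), with RLE scaling (0.038), with a limit of 5 UMIs (4.8e-05), at no more than 5% mitochondrial UMIs (0.024) and with doublets kept (0.043), and missed it in the other alternatives, up to an adjusted p of 0.99 in DESeq2. Sstr1 (0.51, SE 0.37, adjusted p = 0.72) and Npy1r (-0.71, SE 0.49, adjusted p = 0.70) did not pass.

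In Npy-positive neurons 15 of 24 interneuron genes tested were higher and none was called lower, with a median of 1.68 against -0.04 over all genes. Crhbp (log2 difference 4.28, SE 0.22), Sfrp1 (4.14, SE 0.26), Nos1 (3.07, SE 0.20) and Gpd1, a glycerol phosphate dehydrogenase (3.04, SE 0.44), followed Sst as the largest rises. Maf (2.83), Nkx2-1 (2.19) and Lhx6 (2.09), transcription factors of interneuron development, were among the rest. Of 13 other neuropeptides, 7 were lower and Pnoc, which encodes prepronociceptin, was higher (0.77, SE 0.16). Avp had 869 UMIs in Npy-negative and 0 in Npy-positive neurons, and Tac2, which encodes neurokinin B, had 3493 and 2. The largest falls outside the gate genes were Sema3c (-4.44), Zfp503 (-4.08), A230065H16Rik (-4.06), C1ql3 (-3.34) and Zfhx3 (-3.17). The 2 comparisons share 1873 negative neurons, and 80 neurons were positive in both, of 215 Sst-positive and 158 Npy-positive ones. Their likeness is therefore not independent.

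The 80 double-positive neurons were then set against the 126 Sst-only neurons, a comparison added after the data had been seen. Of 2213 genes with enough counts, 138 (6.24%) were called, 67 higher and 71 lower. Npy2r was the 1 member that could be tested. It was at 191, 343, 187 and 188 CPM in double-positive neurons of libraries 1 to 4 against 79.8, 71.6, 159.5 and 45.0 CPM in Sst-only neurons, higher in 4 of 4 libraries, by 1.56 on the log2 scale (SE 0.32, adjusted p = 8.0e-04 in edgeR). Without library 2 the adjusted p was 0.075, and with Sst-only cells matched on depth it was 0.063. An Npy2r UMI was found in 31 of 80 double-positive and 24 of 126 Sst-only neurons.

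Of 29 listed interneuron genes, 10 had enough counts to be tested, and some of these had most of them in the double-positive neurons, so the number called higher is not read as a result. Crhbp was at 467, 706, 513 and 287 CPM in libraries 1 to 4 against 18.6, 20.5, 0 and 0 CPM, and Nos1 at 355, 323, 653 and 1006 CPM against 39.9, 10.2, 159.5 and 18.0 CPM. Lhx6 was at 151, 262, 187 and 320.4 CPM against 29.3, 20.5, 79.8 and 9.0 CPM, and Chodl at 381, 182, 233 and 419.9 CPM against 37.2, 92.1, 120 and 36.0 CPM. These 4 genes are a part of the list, and others overlapped between the groups or went the other way. Satb1 was at 0 against 199 CPM in library 3, and Dlx6 was at 51.0 against 120 CPM pooled over libraries.

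Of 15 listed neuropeptides, 8 had enough counts to be tested, a filter that a gene can pass through 1 group. Cartpt, for example, had 603 UMIs in Sst-only and 29 in double-positive neurons. The number called lower is therefore not read as a result either, and the values are a description. The 5 that were called were lower in double-positive neurons, which were Tac2 (-5.66, SE 0.49), Cartpt (-3.26, SE 0.25), Tac1 (-2.60, SE 0.29), Nts (-1.81, SE 0.55) and Penk (-1.71, SE 0.28). The transcription factors Zfhx3 (-5.35) and Meis2 (-4.51), and Arpp21 (-3.49) and Nrgn (-3.01), which are abundant in striatal and other projection neurons, were also lower, with the same limit. Penk was lower in 3 of 4 libraries and Nts in 2, and the 8 Sst-only neurons of library 3 had 0 UMIs of both.

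**Figure D4:**
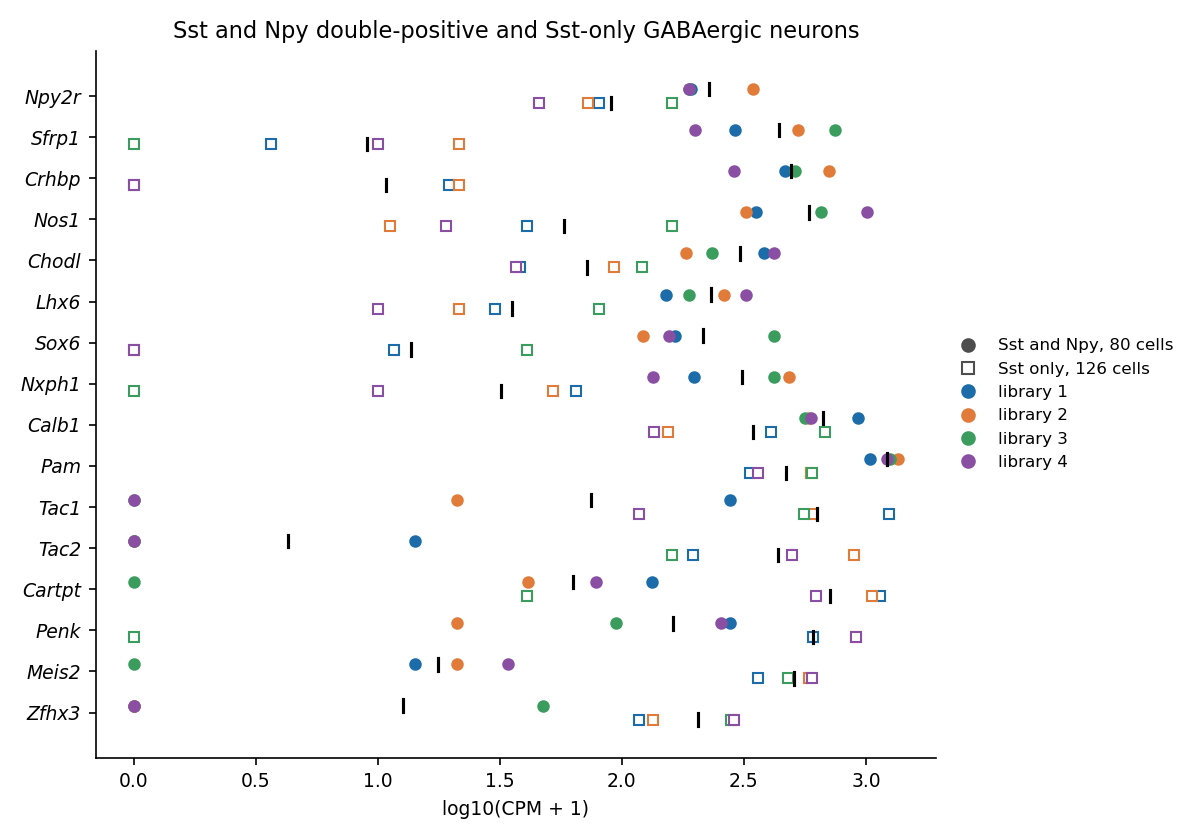
Level of Npy2r and 15 other genes as log10(CPM + 1) in neurons with both peptides (filled circles) and with Sst alone (open squares); each point is 1 library and black bars mark means. The interneuron genes drawn, which are a part of the list, lie to the right in the double-positive neurons, with library 3 the exception for Calb1. Others of the list that are not drawn, such as Dlx5 and Dlx6, were lower in these neurons. Tac2, Cartpt, Meis2 and Zfhx3 lie to the left, and library 3 is the exception for Penk.

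The other genes of the 2 systems were sparse. Cort, which encodes cortistatin, a peptide close to somatostatin that binds the same receptors, had 33 UMIs in 17 kept cells, all GABAergic. Of these UMIs 63.6% were in Sst-positive neurons, in 7 of the 17 cells. The 80 double-positive neurons held 9 of the UMIs in 6 cells, and the 126 Sst-only neurons 0. The rest of the Sst-positive share lay in a single neuron outside both groups. Sstr4 had 19 UMIs, Sstr5 54, Npy4r 1 and Dpp4, a peptidase that trims NPY, 8, and none of these 5 genes could be tested.

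Receptor RNA was far sparser than peptide RNA, and 1 UMI was the usual count in a cell that had any. Kept cells held 290 UMIs of Sstr1, 117 of Sstr2, 44 of Sstr3, 263 of Npy1r, 824 of Npy2r and 78 of Npy5r, and between 52.3% (Npy2r) and 95.2% (Sstr3) of the cells with a UMI had exactly 1. At this depth, a cell without a receptor UMI is not shown to lack the receptor. Of 2276 GABAergic neurons, 300 (13.2%) had a UMI of at least 1 somatostatin receptor, 527 (23.2%) of at least 1 NPY receptor and 94 of both families.

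Npy2r was at 77.2, 100.1, 104 and 75.2 CPM in GABAergic neurons of libraries 1 to 4 (89.2 ± 15.2 CPM, SD, n = 4), with a UMI in 16.2% of cells against 0.106% of oligodendrocytes. By the mean it was highest in the Crh and Wif1 gate, at 147, 234, 309 and 98.6 CPM (197 ± 93.1 CPM), where 51 of 157 cells had a UMI and 14.4 ± 5.15% did at 1000 UMIs. The Tac2 and Ebf1 gate followed with 119, 156, 165 and 80.0 CPM (mean 129.95, SD 38.9), below the Crh and Wif1 gate in each library. Against the mean of the other gates, the log2 difference was 1.56 for the Crh and Wif1 gate (SE 0.23, adjusted p = 1.4e-06 in edgeR) and 0.98 for the Tac2 and Ebf1 gate (SE 0.25, adjusted p = 0.0086).

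At the low end, the Zic1 and Zic4 gate had 23.2 ± 23.0 CPM of Npy2r, and was lower than the other gates by 1.76 on the log2 scale (SE 0.52, adjusted p = 0.037). The Slc17a8 gate was also low, at 41.5 ± 4.90 CPM, without passing the test (-0.81, SE 0.48, adjusted p = 0.40). The Lhx6 and Sox6 gate, where the peptides were highest, had 212, 51.0, 27.9 and 107 CPM in libraries 1 to 4, above the Crh and Wif1 gate in libraries 1 and 4, and did not pass (log2 difference 0.87, SE 0.34, adjusted p = 0.14). Crh, which is a marker of the highest gate, encodes the corticotropin-releasing hormone that acts in stress and anxiety.

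Npy1r, the postsynaptic NPY receptor, was at 26.9, 16.4, 30.8 and 22.3 CPM in GABAergic neurons (24.1 ± 6.21 CPM, SD, n = 4). Its highest gate level was in the Avp and Gal gate, at 63.8 and 74.3 CPM in the 2 libraries that held 10 or more of those cells, with a UMI in 10 of 40 cells. The Tac2 and Ebf1 gate (45.7 ± 24.2 CPM) and the Slc17a8 gate (43.2 ± 28.9 CPM) came next, with spreads that overlapped those of most other gates. Npy5r, its neighbour on chromosome 8, was at 8.88 ± 3.43 CPM in GABAergic neurons with 74 UMIs, too few to rank the gates. The 2 neighbours were found together in 14 GABAergic neurons, as many as held Npy2r and Npy5r together. At 1000 UMIs, 2.62 ± 0.849% of neurons with Npy1r had a Npy5r UMI against 0.593 ± 0.245% of those without, higher in 4 of 4 libraries. In the other direction, 6.86 ± 4.71% of neurons with Npy5r had a Npy1r UMI against 2.12 ± 0.893% of those without, higher in 3 of 4.

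Sstr1 was at 28.0, 30.7, 30.1 and 22.3 CPM in GABAergic neurons (27.8 ± 3.82 CPM, SD, n = 4). It was lowest in the Ppp1r1b and Crym gate, at 4.73 ± 3.78 CPM with 3 UMIs in 181 cells, and in the Crh and Wif1 gate, at 7.69 ± 8.95 CPM, and the 37 cells of the Prkcd gate had 0 UMIs, which allows up to 14.2 CPM. The highest mean, 65.3 ± 62.7 CPM over 3 libraries, was that of the Lhx8 and Rorb gate, where library 2 reached 137 CPM. The Lhx6 and Sox6 gate had 70.6, 51.0, 27.9 and 47.5 CPM (49.2 ± 17.5 CPM), and the Six3 and Ifi27l2a gate (46.2 ± 29.2), the Cck and Greb1 gate (44.1 ± 31.2) and the Slc17a8 gate (43.8 ± 15.2) did not differ from it beyond their spread. The gate order of Sstr1 was thus not that of Npy2r, whose highest gate was among the lowest for Sstr1.

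Sstr2 was at 11.5 ± 1.92 CPM in GABAergic neurons and at 11.8, 38.9, 63.6 and 37.0 CPM in glutamatergic neurons of libraries 1 to 4 (37.8 ± 21.2 CPM, SD, n = 4). The glutamatergic values came from 11 UMIs in 8 cells, and the difference did not pass (log2 difference -1.18, SE 0.60, adjusted p = 0.48 in edgeR). The Six3 and Ifi27l2a gate had 110.0 CPM in library 3 and 0 to 16.4 CPM in the others. Sstr3, a receptor known from neuronal primary cilia, was at 3.88 ± 1.25 CPM in GABAergic neurons with 35 UMIs, and the Lhx6 and Sox6 gate had 0.

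**Figure D5:**
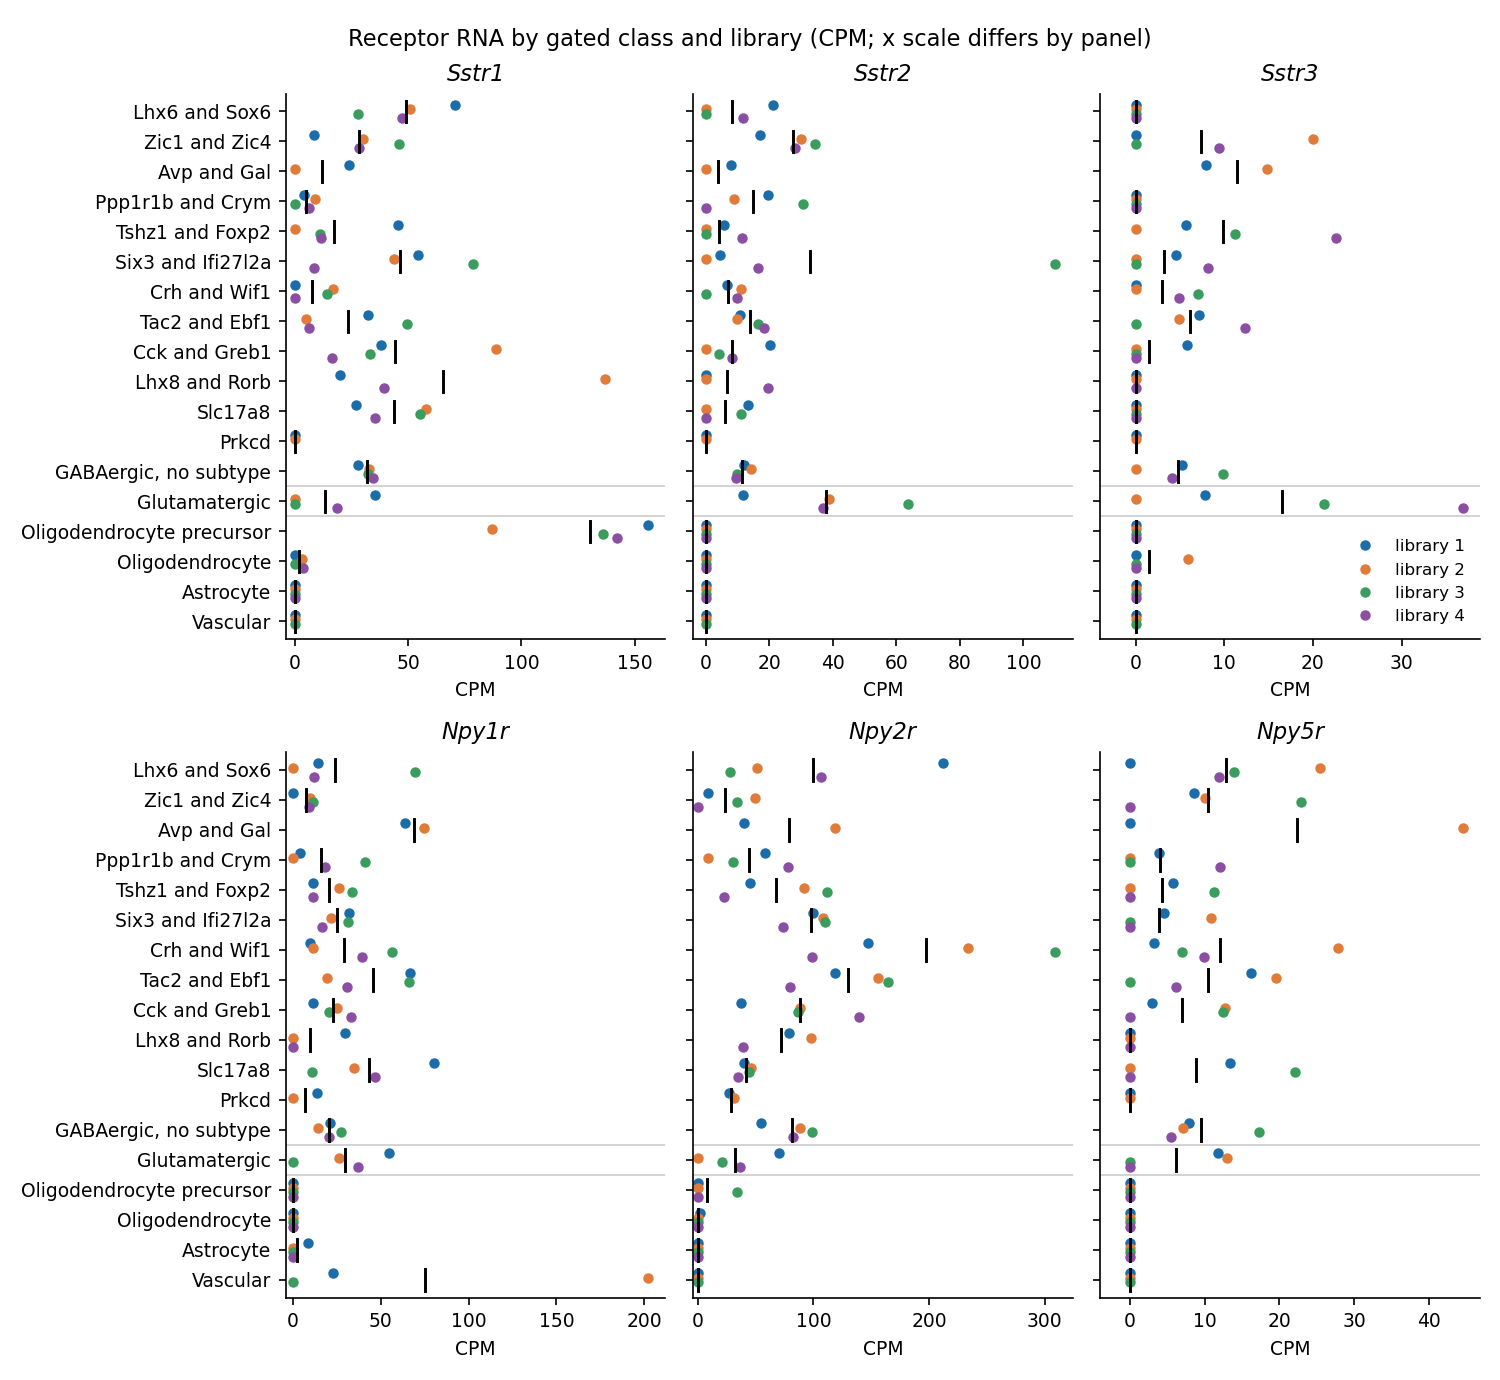
Level of the 6 receptor genes in CPM by gated class; each point is 1 library, black bars mark means, and the scale differs between panels. By their means, the Crh and Wif1 gate is highest for Npy2r and oligodendrocyte precursors for Sstr1, and in libraries 1 and 4 the Lhx6 and Sox6 gate is above the Crh and Wif1 gate for Npy2r.

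In somatostatin receptor-positive GABAergic neurons, 0.814% of 9209 genes were called against receptor-negative ones, and 1 of the 5 members tested, Sst, was among them. Sst was at 1562, 619, 461 and 3896 CPM in receptor-positive neurons of libraries 1 to 4 against 801, 405, 370.2 and 1448 CPM, a log2 difference of 0.94 (SE 0.08, adjusted p = 1.5e-13 in edgeR), higher in 4 of 4 libraries. The call did not hold in DESeq2 (adjusted p = 0.099) or without the library block (adjusted p = 1.0), and levels ranged more widely between libraries than between the groups. Npy (log2 difference 0.25, SE 0.15, adjusted p = 0.69), Npy2r (0.15, SE 0.16), Npy1r (0.01, SE 0.27) and Npy5r (0.30, SE 0.44) did not pass. Receptor-positive neurons were deeper, with medians of 4885.0 and 3048.5 UMIs, and with negative cells matched on depth 7 genes in all were called. Sst was 1 of them, with a log2 difference of 0.80 (SE 0.15, adjusted p = 0.012).

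The receptors were then taken singly at equal depth. A Sst UMI was found in 16.2 ± 7.76% of neurons with Sstr1 and 7.98 ± 2.17% of those without (SD, n = 4), with within-library differences of 9.07, 1.25, 5.81 and 16.8 percentage points. For Sstr2 the shares were 8.40 ± 5.66% and 8.71 ± 2.36%, and for Sstr3 0.348 ± 0.696% and 8.85 ± 2.54%, with 1 of 34 Sstr3 neurons holding Sst before thinning. Of 56 ordered pairs of the 8 genes compared this way, none can reach a p below 0.13 with 4 libraries, so these are given as values.

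Of 13 other neuropeptides, 7 were lower in somatostatin receptor-positive neurons and 2 higher, with a list median of -0.51 against 0.01 over all genes. Avp fell by 4.92 on the log2 scale, Crh by 1.91 and Tac1 by 1.55, and Cartpt (0.49) and Cck (0.85) were higher in 3 and 2 of 4 libraries. Vip had 173 UMIs in receptor-negative neurons and 0 in receptor-positive ones. These UMIs came from few cells, with 172 of them in 14 of the 1873 neurons with 0 UMIs of both peptides. The 0 is therefore not read as a difference. Satb1, a transcription factor of Sst interneurons, was higher (1.10, SE 0.24), as were Fam159b (1.54), Tmem176b (1.06), Pcdh18 (1.05) and BC048546 (0.97). Igfbp4 (-3.35), Strip2 (-2.48), Zeb2 (-2.45) and Stk32a (-2.13) were lower. Of 15 genes of Gi/o signalling, Rgs4, which speeds the end of G protein signalling, was lower (-0.75, SE 0.12) and no other was called.

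In NPY receptor-positive GABAergic neurons, 3.48% of 9433 genes were called, and Sst and Npy were both among them. Sst was at 1461, 725, 772 and 3489 CPM in libraries 1 to 4 against 711, 292, 176 and 1224 CPM, higher in 4 of 4 libraries (log2 difference 1.45, SE 0.07, adjusted p = 1.3e-26 in edgeR). Npy was at 675, 613, 609 and 1994 CPM against 745, 173, 149 and 623 CPM, lower in library 1 and higher in the other 3 (log2 difference 1.21, SE 0.13, adjusted p = 4.6e-10). Without the library block neither passed (adjusted p = 0.91 and 1.0), and Npy did not pass in DESeq2 (adjusted p = 0.092). With negative cells matched on depth both passed, at log2 differences of 1.42 for Sst (SE 0.08) and 1.11 for Npy (SE 0.12). Sstr1 (0.20, SE 0.21, adjusted p = 0.76) and Sstr2 (-0.92, SE 0.37, adjusted p = 0.20) were not called.

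Of the 527 NPY receptor-positive GABAergic neurons, 369 had Npy2r. At 1000 UMIs, 13.3 ± 3.64% of neurons with Npy2r had a Sst UMI against 7.69 ± 2.29% of those without, with differences of 8.22, 6.34, 4.27 and 3.56 percentage points in libraries 1 to 4. For Npy the shares were 9.61 ± 2.62% and 6.00 ± 1.39%, higher in 3 of 4 libraries. For Npy1r the direction was the other way in 3 of 4 libraries for Sst, at 5.31 ± 3.58% against 8.96 ± 2.63%, and the spreads overlapped. Of the 215 Sst-positive neurons, 70 (32.6%) had a UMI of an NPY receptor and 45 (20.9%) of a somatostatin receptor, and of the 158 Npy-positive neurons 50 (31.6%) and 29 (18.4%).

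Other genes of NPY receptor-positive neurons crossed several peptide groups. Of 13 other neuropeptides tested, 7 were higher and 1 lower. Crh rose by a log2 difference of 0.67 (SE 0.08) and Pnoc by 0.54 (SE 0.10), each in 4 of 4 libraries, while Gal and Avp were higher in 2 of 4. Penk was lower (-0.53, SE 0.10). The largest rises outside the gate genes were Sst, Ptpru (1.35), Hcrtr1, an orexin receptor (1.31), Sfrp1 (1.30) and C1ql3 (1.24), and the largest falls, from -1.67 to -1.42, were those of Maf, Kitl, Cox6a2, Ptgds and Crabp1. Of 16 genes of Gi/o signalling, Gng3 (0.26) and Gng2 (0.22) were higher and Rgs4 lower (-0.44). These neurons were deeper too, with medians of 4823.0 and 2883.0 UMIs, and with negative cells matched on depth 123 genes were called in place of 328.

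Outside neurons, Sstr1 was found in oligodendrocyte precursors, the dividing glia that form oligodendrocytes. Their level was 156, 87.2, 136 and 142 CPM in libraries 1 to 4 (130.3 ± 29.9 CPM, SD, n = 4), above the GABAergic level in each library. A UMI was found in 22 of 162 cells (13.6%, exact Clopper-Pearson 95% interval 8.71 to 19.8%, which covers counting error only), at a median depth of 995.5 UMIs. Oligodendrocytes had 2 UMIs in 941 cells and astrocytes 0 in 407, which allows up to 8.0 CPM. At 1000 UMIs, the share with Sstr1 was 14.4 ± 2.29% of precursors and 2.96 ± 0.539% of GABAergic neurons.

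Of the 22 precursors with Sstr1, all 22 had a UMI of Pdgfra, 21 of Olig1 and 19 of Cspg4, against 113, 125 and 94 of the 140 precursors without Sstr1. For the other markers of the class the counts were 16 for Cacng4, 7 for Matn4 and 6 for C1ql1, against 117, 64 and 54, which are smaller shares of the cells with Sstr1. The median depth was 1153.5 UMIs with Sstr1 and 947.5 without, and these shares were not tested. Neuron markers were higher in the precursor gate than in other glia, at a summed 1537 CPM against 345 CPM in oligodendrocytes and 12221 CPM in neurons. A Gad1 UMI was found in 4 of the 22 and 11 of the 140, and a Syt1 UMI in 2 and 11, and the part of this neuronal RNA in the Sstr1 level was not tested. The other 5 receptors were at or near 0 there, with 2 UMIs of Npy2r and none of Sstr2, Sstr3, Npy1r or Npy5r.

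Npy1r was the other receptor outside neurons. Of the 13 non-neuronal or unassigned cells with a Npy1r UMI (18 UMIs), 12 had a UMI of Acta2, Tagln or Myh11, genes of contractile cells, and 11 had one of Rgs5. Among the 23 such cells with at least 2 of these 3 genes, a grouping made after the values were seen, 11 had Npy1r and none had a UMI of any of the other 7 genes. Only 14 of the 23 reached 1000 UMIs. The 61 other vascular cells had 1 Npy1r UMI. The 23 cells came unequally from the libraries, with Npy1r UMIs numbering 4, 10, 2 and 0.

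Genes whose level followed a member most closely were sought over 18 classes and subtypes, with Pearson's r of log2(mean CPM + 1), as the 3 highest of 11855 genes. They were Tacr3 (0.77), Trpm2 (0.76) and Kcnmb2 (0.76) for Sst and Crhr2 (0.77), Moxd1 (0.75) and Frem3 (0.70) for Npy. For Npy2r they were Ranbp1, Rgs17 and Arf1 (0.96 to 0.97), and for Sstr1 Nfatc2 (0.92), Slc41a2 (0.92) and Bean1 (0.91). For Npy1r the highest was Ppm1g (0.92), for Npy5r Kcnh1 (0.90), for Sstr2 Rhov (0.90) and for Sstr3 Adcyap1 (0.84). The points share libraries and differ in depth, and the receptors' points rest on few UMIs, so these are descriptions.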

How the data were processed

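Raw UMI counts per gene and cell barcode were deposited by the authors, 1 table per library. Per the submitters' processing notes the tools were bcl2fastq 2.18.0.12, STAR 2.4.2a and Picard 2.2.4 with mm10, GRCm38; how barcodes were chosen and whether strand was used is not given in the sources used here. Cells with at least 400 genes and at most 10% mitochondrial UMIs were kept, and doublets called by Scrublet in each library (scanpy 1.11.5, expected rate 0.05; 19, 5, 15 and 19 called) were removed. A class needed at least 2 of 8 markers and more than any other class; 1 precursor marker, Lhfpl3, was not found. Neurons with Gad1, Gad2 or Slc32a1 UMIs and 0 of Slc17a6 and Slc17a7 were GABAergic, and the reverse glutamatergic. Subtypes needed 2 UMIs of their gate genes and more than any other gate. Peptide-positive neurons had at least 2 UMIs and negative ones 0; receptor-positive neurons had at least 1 UMI of any of the 3 receptors of a family.

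UMIs were summed per library and group and tested in edgeR 4.0.16 (TMM scaling, filterByExpr, quasi-likelihood F-test, library as a block; R 4.3.3), with Benjamini-Hochberg adjustment over all genes tested. The block pairs groups of cells that come from the same library. DESeq2 1.42.0, other filters, limits and depth matching, and leaving out each library were the alternatives. Shares at equal depth are the expected share at 1000 UMIs per cell, without shallower cells; limits for a count of 0 use 3 counts. A class needed 10 cells in a library to give a value.

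The genes named were the members, the 5 largest rises and 5 largest falls with the same direction in all 4 libraries outside the gate genes, and the called genes of the lists. The members and lists were chosen with earlier results of these data known. The edgeR p-values and SEs rest on differences within libraries, with a spread that is estimated partly over all genes. They can understate how far the difference of a single gene varied between pools of mice. Npy between transmitter types, for example, was reversed in library 2 but had an SE of 0.18.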

Additional observations from a re-analysis of the deposited data

Results flagged for a closer look

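In 57 sets of 4 library values for a member in a class, 3 had a library that stood far from the other 3, and chance gives about 2.85. Sstr1 in neurons was lowest in library 4, at 21.3 CPM. Sst in the Six3 and Ifi27l2a gate was highest in library 1, at 413 CPM. Npy in the Tshz1 and Foxp2 gate was highest in library 4, at 622 CPM.

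Npy1r was also found in cells that were not assigned to a class, at 145 CPM over all libraries, in 7 of 76 cells. The 5652 barcodes with fewer than 400 genes, which the comparisons do not use, held Sst at 264 CPM, Npy at 135 CPM, Npy2r at 44.9 CPM, Sstr1 at 12.2 CPM, Npy1r at 11.4 CPM, Npy5r at 6.53 CPM and Sstr2 at 3.27 CPM.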

How the results depend on the processing

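All 24 alternatives kept the direction of the co-detection of Sst and Npy. All 90 alternatives for class levels stayed within the spread between libraries. Leaving out a library could fail neither check, since all libraries shared the direction and a mean then shifts by less than the SD. The SD was wide, such as 637 CPM for Sst in GABAergic neurons. The other alternatives gave 26.6 to 47.4 percentage points for Npy in Sst-positive neurons and 34.7 to 56.1 for Sst in Npy-positive neurons. Of 449 alternative values for members in the fits, 408 kept their direction and side of the threshold, 27 lost the call, 6 gained it and 8 changed sign. Counts of called genes moved more, 31 of 113 by over 1.5 times.

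The replicate block pairs groups from the same library. Without it the counts were 158 for GABAergic against glutamatergic neurons (246 with it), 32 for Sst (121), 94 for Npy (249), 10 for somatostatin receptors (75), 3 for NPY receptors (328) and 81 for double-positive neurons (138). DESeq2 gave 133, 44, 122, 17 and 44 for the first 5 of these. With negative cells matched on depth the counts were 40 for Sst, 90 for Npy, 7 for somatostatin receptors, 123 for NPY receptors and 80 for double-positive neurons. At most 5% mitochondrial UMIs gave 32 for somatostatin and 178 for NPY receptors. A limit of 1 UMI gave 79 for Sst, one of 5 UMIs gave 85 for double-positive neurons, and no low-count filter gave 114 for somatostatin receptors. Leaving out 1 library gave 138 to 210 for the transmitter comparison (138 without library 1), 61 to 126 for Sst (61, 77 and 72 without libraries 1, 2 and 4), 26 to 65 for somatostatin receptors (48, 48 and 26 without libraries 1, 2 and 3), 152 to 292 for NPY receptors (152 without library 4) and 73 to 171 for double-positive neurons (73 and 87 without libraries 2 and 4).

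The sign changes were in values that had not passed. Npy1r between transmitter types ranged from -0.897 to 0.0551 over the left-out libraries. In somatostatin receptor-positive neurons Npy ranged from -0.0915 to 0.617 and Npy1r from -0.39 to 0.11, and Npy1r was -0.0526 without the low-count filter, -0.12 in DESeq2, -0.0037 in all gated neurons and -0.28 at 5% mitochondrial UMIs. The causes were not tested. The transmitter comparison was not run at 5% mitochondrial UMIs or with 2 UMIs of transmitter markers, where a library had under 10 cells. Depth limits the receptors, since most cells with a receptor UMI had 1.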
